A study of Mus musculus with 23 samples.

Results

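The Notch pathway was described here through 10 mouse genes: the receptors Notch1, Notch2, Notch3 and Notch4, the ligands Jag1, Jag2 and Dll4, and the target genes Hes1, Hey1 and Heyl. They were chosen by gene name from the 19661 genes to which probe sets of the array could be assigned. Each of the 10 had 1 probe set, and all 10 passed the filter on dim signal that left 14745 genes to be tested. The choice of the pathway was made with results known, and the comparison that brought Notch1 forward is not recorded. It was taken to be the log2 difference of Notch1 between the B6xPWD hybrid and the mean of the parental strains. Tests of Notch1 elsewhere may therefore not be free of the choice. That comparison is therefore given for every member as a description with no test. Notch1 is given without a p-value wherever B6xPWD arrays or the parental mean take part, and for laboratory F1s against B6. Its test between PWD and B6 is kept, though these arrays took part in the choice.

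Notch receptors sit in the membrane and are activated by Jagged and Delta ligands on a neighbouring cell. Proteases then release the intracellular part of the receptor, which joins the DNA-binding protein Rbpj in the nucleus and switches on genes such as the Hes and Hey repressors. In the mouse testis, Jag1 on germ cells and Notch1 on Sertoli cells are known to form such a pair, with Hes1 and Hey1 acting on Gdnf, a growth factor for spermatogonial stem cells, and on Cyp26b1, which degrades retinoic acid. Notch4 and Dll4 are known chiefly from endothelium, and Notch3 and Heyl from the mural cells around vessels.

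Expression was measured with Affymetrix whole-transcript mouse gene arrays. The RNA came from spermatogenic cell populations prepared from juvenile testes at 14.5 days, when the earliest germ cells of the mouse have entered meiosis. Each of the 23 arrays held RNA pooled from 4 testes, and arrays of a genotype count as replicates. It is not stated that pools were of different litters, and p-values describe the scatter among pools, which may be technical. The F1 hybrids between subspecies were PWDxB6 (3 arrays), known from the field as sterile, and the reciprocal B6xPWD (3 arrays). F1s within a subspecies were PWDxPWK (2 arrays, after the authors left out 1 that stood apart), B6xBALB/C (6 arrays) and BALB/CxB6 (3 arrays), and the inbred parents were PWD (3 arrays), of Mus musculus musculus origin, and B6 (3 arrays), a laboratory strain. Names give the mother's strain first by convention.

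Array medians ranged over 6.13 to 6.28 (log2). Precision is limited by how few arrays each genotype has. Markers of somatic cells passed the dim filter although the preparation aimed at spermatogenic cells: 13 of 14 Sertoli, 11 of 11 endothelial, 6 of 6 peritubular, 8 of 9 stromal, 6 of 9 Leydig and 5 of 8 macrophage markers. Adgre1, Cd14, Ptprc, Lum and Hsd3b1 were dim, and Insl3, Lhcgr and Rhox5 were not measured under their own symbols. Of germ cell markers, 15 of 15 for spermatogonia and 14 of 15 for meiotic cells passed, Pgk2 being dim. Replicate 6 of B6xBALB/C stood apart from the other arrays of its genotype, with a mean log2 level of the meiotic markers of 7.89 against 8.72 to 9.46, and it was the highest of the 6 arrays for 9 of the 10 Notch members. Replicate 2 of PWDxB6 was the lowest of its 3 arrays for 6 members. Both arrays were kept in the fit.

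Promoter sequences in RefSeq's GRCm38.p6 table were found for 7 of the 10 members, the receptors and ligands. The 250 bases before the annotated start are printed for Notch1 and Notch2, the receptors with the widest differences between genotypes, and for Dll4, a ligand whose reciprocal hybrids did not overlap. They were searched on both strands for TGGGAA, the core of the Rbpj site, and for CACGCG, a site of Hes and Hey repressors. Capitals mark CACGCG.
Notch1 (chr2:26503823-26504072, minus strand): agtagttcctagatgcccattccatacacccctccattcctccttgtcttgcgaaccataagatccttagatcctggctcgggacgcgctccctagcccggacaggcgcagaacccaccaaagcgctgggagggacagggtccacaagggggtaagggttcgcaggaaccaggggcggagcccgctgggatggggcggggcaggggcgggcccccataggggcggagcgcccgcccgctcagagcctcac
Notch2 (chr3:98013288-98013537, plus strand): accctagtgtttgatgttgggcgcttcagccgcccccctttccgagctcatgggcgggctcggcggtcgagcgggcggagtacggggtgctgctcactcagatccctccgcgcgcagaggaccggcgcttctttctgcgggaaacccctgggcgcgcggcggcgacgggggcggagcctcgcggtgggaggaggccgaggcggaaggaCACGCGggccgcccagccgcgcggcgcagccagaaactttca
Dll4 (chr2:119325534-119325783, plus strand): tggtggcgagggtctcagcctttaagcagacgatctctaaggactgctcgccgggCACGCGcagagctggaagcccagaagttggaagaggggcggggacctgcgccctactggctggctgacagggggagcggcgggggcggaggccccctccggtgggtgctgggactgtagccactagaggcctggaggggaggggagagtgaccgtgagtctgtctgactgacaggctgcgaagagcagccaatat
CACGCG stood in the windows of Notch2, Dll4 and Jag1, 3 of 7, against 7.62% of 32851 windows of the same length, and TGGGAA stood in 0 of 7 against 21.6%, so the motifs did not overlap. The window of Notch1 held neither. Bases G and C made up 66.0% of the Notch1 window, 72.0% of that of Notch2 and 65.6% of that of Dll4, above the 52.4% median of all windows. A match is a description of the letters and does not show binding.

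The receptors differed most in Notch1. Its log2 levels were 9.04, 8.13 and 9.12 on the PWDxB6 arrays, 8.32, 8.42 and 8.36 on the B6xPWD arrays and 8.29 and 8.89 in PWDxPWK. B6xBALB/C arrays ran from 8.78 through a median of 9.01 to 9.56, and BALB/CxB6 arrays had 9.36, 8.98 and 8.81. The parental strains had 8.83, 8.84 and 8.86 in PWD and 9.45, 9.60 and 9.41 in B6. All B6xPWD arrays thus lay under all arrays of both parents, while PWDxB6 was split, with replicate 2 below every B6xPWD array and the other 2 above all PWD arrays. The share of all genes with B6xPWD clear of both parents was not worked out, here or for Notch2, Notch3 and Hey1. From high to low, the genotype means of Notch1 ranked as B6, B6xBALB/C, BALB/CxB6, PWD, PWDxB6, PWDxPWK and B6xPWD, and no 2 neighbours in that order were free of overlap. The means spanned 1.12 log2 units, from B6 to B6xPWD, the hybrid on whose values Notch1 was taken to be selected, and the median span over the tested genes was 0.39.

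Notch2, the other receptor of broad expression, had log2 levels of 9.56, 9.03 and 9.60 in PWDxB6, 9.12, 9.12 and 9.30 in B6xPWD and 9.34 and 9.74 in PWDxPWK. The F1s of laboratory strains ran from 9.34 through a median of 9.42 to 9.99 in B6xBALB/C, and had 9.67, 9.45 and 9.24 in BALB/CxB6. PWD arrays had 9.57, 9.66 and 9.72, and B6 arrays had 9.99, 9.88 and 9.78. For Notch2 too B6 had the highest mean and B6xPWD the lowest, with all B6xPWD arrays under all parental arrays and replicate 2 of PWDxB6 lowest of all 23. B6 and PWD were the 1 pair of neighbours in the order whose arrays did not overlap.

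Notch3 and Notch4, receptors of vessels, varied less. Notch3 averaged 6.61 ± 0.18 in PWDxB6, 6.48 ± 0.07 in B6xPWD, 6.85 ± 0.05 in PWDxPWK, 6.62 ± 0.15 in B6xBALB/C, 6.38 ± 0.26 in BALB/CxB6, 6.80 ± 0.06 in PWD and 6.82 ± 0.22 in B6 (log2 mean ± SD, n as above). Its 3 B6xPWD arrays (6.53, 6.51 and 6.39) lay below all 6 parental arrays (6.67 to 7.08). Notch4 averages lay between 6.11 in B6xPWD and 6.38 in PWDxPWK, a span of 0.27, and none of the 21 pairs of genotypes was free of overlap.

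**Figure D1:**
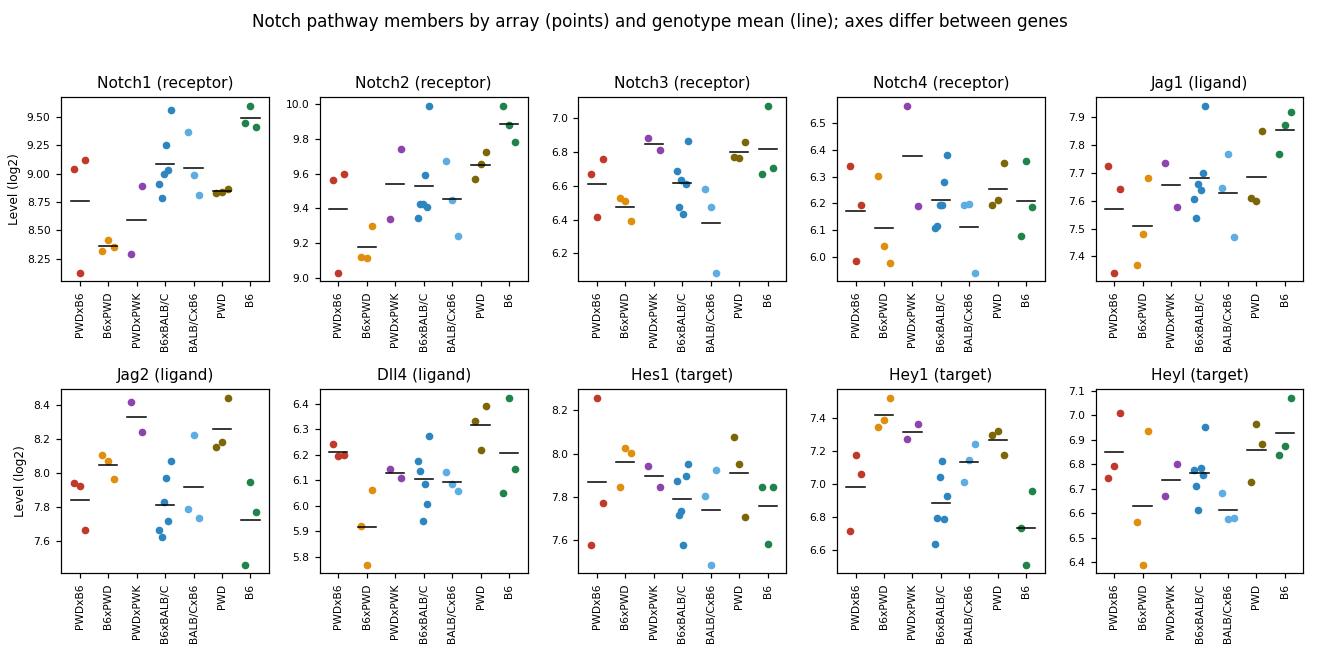
Log2 level of each of the 10 members on each of the 23 arrays, 1 point per array and a line at the genotype mean, genotypes along the horizontal axis and a separate vertical scale for each gene. Notch1 and Notch2 have their highest mean in B6 and their lowest in B6xPWD, while Hey1 has its highest mean in B6xPWD and its lowest in B6.

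Of the ligands, Jag2 had its highest means in PWDxPWK and PWD. Its log2 levels were 7.94, 7.92 and 7.67 in PWDxB6, 8.10, 8.07 and 7.96 in B6xPWD and 8.41 and 8.24 in PWDxPWK. B6xBALB/C arrays ran from 7.62 through 7.77 to 8.07, and BALB/CxB6 arrays had 7.78, 8.22 and 7.74. PWD had 8.15, 8.18 and 8.44, against 7.46, 7.95 and 7.77 in B6. PWDxPWK and PWD stood highest, B6 lowest, and 11 of 21 pairs of genotypes did not overlap. For no member was it worked out how common such a count is over all genes. The neighbours PWD and B6xPWD were the 1 pair next to each other in the order without overlap.

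Dll4, a Delta ligand of sprouting vessels, had 6.24, 6.20 and 6.20 in PWDxB6 and 5.92, 5.77 and 6.06 in B6xPWD. PWDxPWK had 6.15 and 6.11, B6xBALB/C ran from 5.94 through 6.11 to 6.27, and BALB/CxB6 had 6.13, 6.08 and 6.06. The parents had 6.33, 6.22 and 6.39 in PWD and 6.05, 6.43 and 6.14 in B6. B6xPWD had the lowest mean, and its arrays overlapped those of B6 but not those of PWDxB6. Jag1, the ligand of germ cells, averaged 7.57 ± 0.20 in PWDxB6, 7.51 ± 0.16 in B6xPWD, 7.66 ± 0.11 in PWDxPWK, 7.68 ± 0.14 in B6xBALB/C, 7.63 ± 0.15 in BALB/CxB6, 7.69 ± 0.14 in PWD and 7.85 ± 0.08 in B6 (SD). For Jag1 4 of the 21 pairs of genotypes did not overlap, and the means spanned 0.34.

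The targets did not share 1 pattern. Hey1 had log2 levels of 6.72, 7.18 and 7.06 in PWDxB6, 7.35, 7.39 and 7.53 in B6xPWD and 7.27 and 7.37 in PWDxPWK. B6xBALB/C ran from 6.64 through 6.86 to 7.14, and BALB/CxB6 had 7.01, 7.15 and 7.24. PWD arrays had 7.30, 7.33 and 7.18, and B6 arrays had 6.73, 6.51 and 6.96. B6xPWD, PWDxPWK and PWD stood high and B6 low, and 13 of 21 pairs of genotypes did not overlap, the most of any member. How common such a count is over all genes was not worked out. Every array of B6xPWD lay above every array of PWDxB6 and of both parents. Between the hybrids 24% of all tested genes did not overlap, and the share clear of both parents was not worked out.

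Hes1 averages spanned 0.22, less than for most tested genes (11.3% had a smaller span), with 7.58, 8.26 and 7.77 in PWDxB6 and 7.85, 8.03 and 8.0 in B6xPWD. Its averages in the other genotypes lay between 7.74 in BALB/CxB6 and 7.91 in PWD, and none of the 21 pairs was free of overlap. The array with the highest Hes1, replicate 2 of PWDxB6, was the array with the lowest Notch1. Heyl averaged 6.85 ± 0.14 in PWDxB6, 6.63 ± 0.28 in B6xPWD, 6.74 ± 0.09 in PWDxPWK, 6.76 ± 0.11 in B6xBALB/C, 6.61 ± 0.06 in BALB/CxB6, 6.86 ± 0.12 in PWD and 6.93 ± 0.13 in B6 (SD). For Heyl 4 of the 21 pairs were free of overlap.

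Between the parental strains 1 receptor, 1 ligand and 1 target passed the limma threshold. In PWD, Hey1 was higher by 0.53 log2 units (SE 0.134, limma adjusted p = 0.00736), at 7.27 ± 0.08 against 6.73 ± 0.23 in B6 (SD, n = 3 each). Jag2 was higher in PWD by 0.53 (SE 0.145, adjusted p = 0.0124), at 8.26 ± 0.16 against 7.72 ± 0.25. Notch1 was lower in PWD by a log2 difference of -0.64 (SE 0.212, adjusted p = 0.0365), at 8.84 ± 0.02 against 9.49 ± 0.10. The parental arrays took part in the choice of Notch1, so its test may not be free of that choice. Arrays of PWD and B6 did not overlap for these 3 genes and for Notch2, which did not pass, 4 of 10 members, where 38% of all tested genes did not overlap. Over all tested genes 18.4% passed in this comparison, so 3 of 10 members is not far from the background, and the members' median difference was 0.01 against 0.04 over all genes. The members that did not pass had differences from -0.23 for Notch2 to 0.15 for Hes1.

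The call of Hey1 between the parents held in all 35 alternatives, with adjusted p from 0.00277 to 0.0483. That of Jag2 was lost without PWD replicate 3 (adjusted p = 0.0718) and without B6 replicate 1 (adjusted p = 0.0833). That of Notch1 was lost when any of the 6 parental arrays was left out, with adjusted p from 0.0661 without B6 replicate 3 to 0.10 without B6 replicate 2; the difference itself stayed between -0.68 and -0.59. Some marker lists of somatic cells moved with the parental contrast. Mean log2 levels of macrophage markers ran from 5.97 to 6.16 in PWD against 6.51 to 6.72 in B6, of endothelial markers from 6.28 to 6.40 against 6.48 to 6.74, and of Leydig markers from 6.51 to 6.68 against 6.81 to 7.12. Sertoli markers ran from 9.51 to 9.63 in PWD against 9.63 to 9.78 in B6, and markers of spermatogonia from 8.53 to 8.61 against 8.32 to 8.46. Their part in the differences of Notch1, Jag2 and Hey1 was not tested, and in pooled tissue fewer cells of a type and less RNA per cell cannot be told apart.

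The reciprocal hybrids carry the same autosomal alleles, with sex chromosomes from opposite parental strains. Between them 0 of 10 members passed the limma threshold, where 2.83% of all tested genes passed. An unadjusted p under 0.05 was found for 2 members, Dll4 and Hey1, and for 3112 of the 14745 tested genes. Hey1 averaged 6.98 ± 0.24 in PWDxB6 and 7.42 ± 0.09 in B6xPWD (SD, n = 3 each), a difference of -0.44 with a 95% interval from -0.717 to -0.161 (adjusted p = 0.0721). Dll4 averaged 6.21 ± 0.03 in PWDxB6 and 5.92 ± 0.15 in B6xPWD, a difference of 0.30 with an interval from 0.079 to 0.513 (adjusted p = 0.114). Jag2 had a difference of -0.20 (adjusted p = 0.426). These 3 of 10 members did not overlap between the hybrids, where 24% of all tested genes did not. Intervals are for 1 gene and carry no adjustment for the number of genes.

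Among the receptors the reciprocal difference was 0.40 for Notch1 (SE 0.212, a description) and 0.22 for Notch2 (adjusted p = 0.447). It was 0.14 for Notch3 (adjusted p = 0.573) and 0.07 for Notch4 (adjusted p = 0.781). These values rest in part on replicate 2 of PWDxB6. Without it the difference was 0.72 for Notch1, 0.40 for Notch2 (adjusted p = 0.141), 0.24 for Notch3 (adjusted p = 0.324) and 0.16 for Notch4 (adjusted p = 0.473). Without that array Hey1 had a difference of -0.54 and passed (adjusted p = 0.0418). Hey1 also passed with a block for the replicate number (adjusted p = 0.0302) and with B6xBALB/C replicates 1 to 3 alone in the fit (adjusted p = 0.0487). It passed with array weights too (adjusted p = 0.00507), a setting in which 4635 of the 14745 tested genes passed, against 418 in the reported fit. Hes1 differed by -0.09 (95% interval -0.398 to 0.218), Jag1 by 0.06 (-0.192 to 0.310) and Heyl by 0.22 (-0.031 to 0.469), intervals that leave room for differences of either sign. Without replicate 2 of PWDxB6 these differences were -0.29 for Hes1 (adjusted p = 0.225), 0.17 for Jag1 (adjusted p = 0.416) and 0.25 for Heyl (adjusted p = 0.279). Beside these values, the mean log2 level of meiotic germ cell markers ran from 8.12 to 8.43 in PWDxB6 against 8.63 to 8.98 in B6xPWD, and that of peritubular markers from 8.54 to 8.91 against 8.22 to 8.39. Endothelial markers ran from 6.02 to 6.42 in PWDxB6 and from 5.92 to 6.35 in B6xPWD. Replicate 2 of PWDxB6, low in Notch1, was also the lowest of its genotype for endothelial (6.02), stromal (8.45) and macrophage markers (5.97). The part of cell types in the reciprocal values was not tested.

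**Figure D2:**
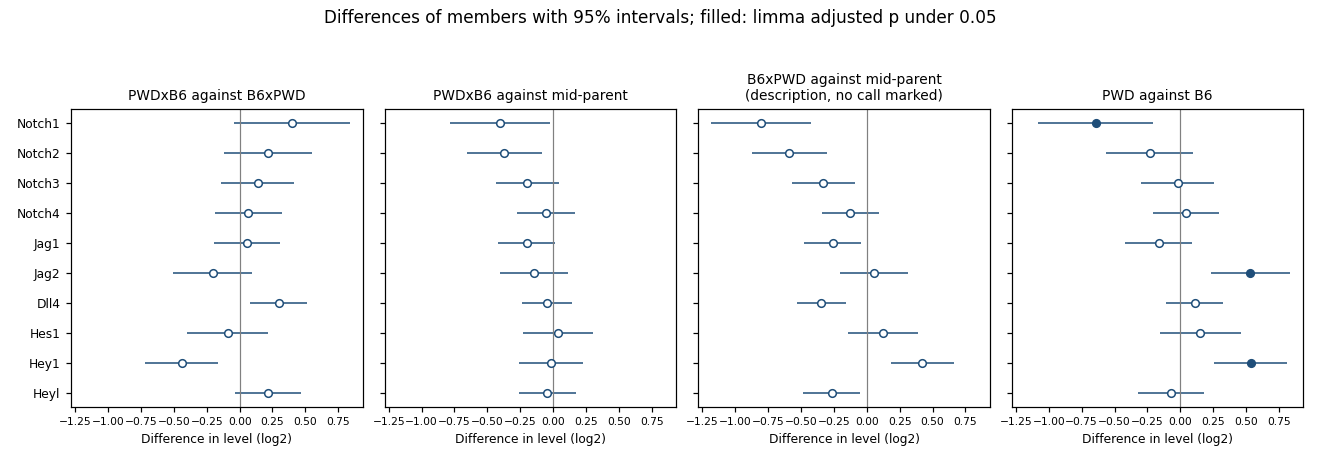
Difference in log2 level of each member with its unadjusted 95% interval in 4 comparisons, filled points marking a limma adjusted p under 0.05 and the third panel shown as a description. Intervals of Notch1 outside PWD against B6 are a description too. Notch1, Jag2 and Hey1 pass between PWD and B6, and no member passes between PWDxB6 and B6xPWD or between PWDxB6 and the mid-parent.

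Against the mid-parent, the mean of PWD and B6, PWDxB6 had 0 of 10 members past the limma threshold, where 0.671% of all genes passed. An unadjusted p under 0.05 was found for 1764 of the 14745 tested genes and for 2 members. Those were Notch1 at 8.76 in PWDxB6 and 9.16 in the mid-parent, a difference of -0.40 (SE 0.183), and Notch2 at 9.40 and 9.77, a difference of -0.37 (SE 0.139, adjusted p = 0.274). The parental arrays took part in the choice of Notch1, so its value and its place in this count are a description. The remaining members lay between -0.20 for Jag1 and 0.04 for Hes1, with a median over the 10 of -0.10 against 0.01 over all genes. The receptor values rest largely on replicate 2 of PWDxB6: without it the differences were -0.09 for Notch1, -0.19 for Notch2, -0.09 for Notch3 and -0.09 for Jag1, and that of Hes1 was -0.16.

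B6xPWD was set against the same mid-parent. In the receptors its log2 differences were -0.80 for Notch1 (SE 0.183), -0.59 for Notch2 (SE 0.139), -0.33 for Notch3 (SE 0.116) and -0.12 for Notch4 (SE 0.106). Ligands had -0.26 for Jag1, 0.06 for Jag2 and -0.34 for Dll4, and targets had 0.13 for Hes1, 0.42 for Hey1 and -0.26 for Heyl. As a bare count, 4 of 10 members lay past the threshold, where 14.5% of all genes did. Since this comparison was taken as the one that brought Notch1 forward, nothing is read from it. Without B6xPWD replicate 2 the count was 1, and the count over all genes fell from 2135 to 389. The values of both hybrids share the parental arrays and are set side by side only. Marker lists stood lower in B6xPWD than in the mid-parent too, by a median of -0.35 over 11 endothelial, -0.39 over 6 Leydig, -0.31 over 8 stromal, -0.18 over 6 peritubular and -0.07 over 13 Sertoli genes, and higher by 0.29 over 14 meiotic genes. Past the threshold on the lower side lay 4 endothelial, 1 Leydig, 2 stromal, 2 peritubular and 3 Sertoli genes, where 6.69% of all genes did. On the higher side lay 1 meiotic gene. Macrophage markers had a median of -0.19 over 5 genes, with 0 past the threshold. Markers of spermatogonia had a median of 0.03 over 15 genes, with 3 past it on the higher side. The part of these lists in the Notch values was not tested.

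The F1s within a subspecies, PWDxPWK, B6xBALB/C and BALB/CxB6, gave a second standard for B6xPWD. Notch1 stood at 8.36 in B6xPWD and 8.91 in the mean of the 3 F1 genotypes, a difference of -0.55 (SE 0.173), Hey1 at 7.42 and 7.11, a difference of 0.31 (adjusted p = 0.126), and Notch2 at 9.18 and 9.51, a difference of -0.33 (adjusted p = 0.172). Here 0 of 10 members passed in limma, where 2.38% of all genes passed. An unadjusted p under 0.05 was found for 4 members and for 2832 of the 14745 tested genes. Notch1 is among these members, and its place in the count is a description. PWDxB6 against the same F1s had 0 members past the threshold, where 1.3% of genes passed, with differences from -0.18 for Jag2 to 0.14 for Heyl. There 0 members and 1962 of the 14745 tested genes had an unadjusted p under 0.05. In that comparison Notch1 had a difference of -0.15 with all arrays and 0.17 without replicate 2 of PWDxB6.

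The F1s of laboratory strains gave a view of the receptors without PWD alleles. Against inbred B6 the mean of B6xBALB/C and BALB/CxB6 had 0 of 10 members past limma's threshold, where 4.51% of genes passed. An unadjusted p under 0.05 was found for 5 members and for 3102 of the 14745 tested genes. Notch2 stood at 9.49 in these F1s and 9.88 in B6, a difference of -0.39 (SE 0.133, adjusted p = 0.0905). Notch3 stood at 6.50 and 6.82, a difference of -0.32 (SE 0.111, adjusted p = 0.0941), and Notch1 at 9.07 and 9.49, a difference of -0.42 (SE 0.176). The B6 arrays took part in the choice of Notch1, so its value here and its place among the 5 members are a description. Hey1 and Heyl had differences of 0.28 (adjusted p = 0.148) and -0.24 (adjusted p = 0.168). This comparison shares the B6 arrays with the parental one. Somatic marker lists moved with it, with median differences of -0.41 over 6 Leydig genes (6 negative, 2 lower in the test), -0.42 over 5 macrophage genes (5 negative, 2 lower) and -0.36 over 8 stromal genes (7 negative, 1 lower). Endothelial markers had a median of -0.25 (11 of 11 negative, 1 lower) and Sertoli markers of -0.17 (12 of 13 negative, 0 past the threshold). Their part in the receptor values was not tested.

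Which arrays stood for B6xBALB/C mattered for these values. Without its replicate 6, Notch2 (adjusted p = 0.0205) and Notch3 (adjusted p = 0.0439) passed, and Notch3 also passed without BALB/CxB6 replicate 1 (adjusted p = 0.0487). With replicates 1 to 3 alone Notch2 (adjusted p = 0.0185) passed, and Notch1 had a difference of -0.51. Within B6xBALB/C, replicates 4 to 6 averaged 9.28 for Notch1 and replicates 1 to 3 averaged 8.89, and all 10 members had the higher mean in replicates 4 to 6, by 0.03 for Notch3 to 0.39 for Notch1. Without replicate 6, replicates 4 and 5 had the higher mean for 7 of the 10, the difference being 0.24 for Notch1 and 0.10 for Notch2, and Notch3, Dll4 and Hes1 had the lower mean there. The labels do not say that these sets were prepared apart. Replicate 6 had mean log2 levels of Leydig markers of 7.20 against 6.39 to 6.73 on the other 5 arrays, and of Sertoli markers of 9.76 against 9.26 to 9.58. The part of these lists in its Notch levels was not tested.

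Between B6xBALB/C and BALB/CxB6, the reciprocal cross within laboratory strains, 0 of 10 members passed in limma, where 0.441% of genes passed. An unadjusted p under 0.05 was found for 1 member, Hey1, and for 2095 of the 14745 tested genes. Hey1 stood at 6.89 in B6xBALB/C and 7.13 in BALB/CxB6, a difference of -0.25 (adjusted p = 0.336). The difference between the reciprocal differences of the hybrids and of these F1s was also tested. It gave 0 members past the threshold, where 1.3% of genes passed. Here 0 members and 2461 of the 14745 tested genes had an unadjusted p under 0.05. Dll4 had the largest size after Notch1, at 0.28 (adjusted p = 0.304). PWDxPWK against PWD had 0 of 10 past the threshold, where 0.00678% of genes passed, with 2 arrays of PWDxPWK. In that comparison 0 members and 419 of the 14745 tested genes had an unadjusted p under 0.05. Hey1 (7.32 in PWDxPWK and 7.27 in PWD) and Jag2 (8.33 and 8.26) were close in these genotypes.

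Other genes of the pathway were taken from a list of 66, of which 59 were on the array under their own symbols and 57 were tested. Rbpj, the DNA-binding partner of the receptors, was dim, with a mean log2 value of 4.26 over all arrays against a limit of 5.12, as was the ligand Cntn1.

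In the reciprocal hybrids 3 of 57 pathway genes were higher in PWDxB6, where 1.33% of all genes were, and 0 were lower, with a median difference of 0.09 against 0.03 over all genes. Cyp26b1, the retinoic acid hydroxylase that Hes1 and Hey1 are known to repress in mouse Sertoli cells, had log2 levels of 9.08, 8.73 and 9.33 in PWDxB6 against 8.27, 8.08 and 8.15 in B6xPWD; the difference was 0.88 (SE 0.189, adjusted p = 0.0172). Dtx1, a Deltex ubiquitin ligase that binds Notch receptors, had 9.31, 9.30 and 9.48 in PWDxB6 against 8.94, 8.66 and 8.80 in B6xPWD; the difference was 0.56 (SE 0.138, adjusted p = 0.0301). Furin, the convertase that cleaves Notch precursors on their way to the surface, had 8.98, 8.76 and 9.0 in PWDxB6 against 8.37, 8.42 and 8.32 in B6xPWD; the difference was 0.54 (SE 0.134, adjusted p = 0.0320). None of these 3 overlapped between the hybrids. These calls depended on single arrays: that of Cyp26b1 was lost without PWDxB6 replicate 1 or 3 or B6xPWD replicate 2, that of Dtx1 without these or B6xPWD replicate 3, and that of Furin without these or B6xPWD replicate 1. The highest adjusted p was 0.103 for Cyp26b1, 0.151 for Dtx1 and 0.132 for Furin, while the differences stayed at or above 0.74, 0.50 and 0.50. Mean log2 levels of Sertoli markers ran from 9.55 to 9.68 in PWDxB6 against 9.44 to 9.52 in B6xPWD, and their part was not tested. Gdnf, the further gene known to be repressed by this route, averaged 7.12 ± 0.22 in PWDxB6 and 7.03 ± 0.10 in B6xPWD (difference 0.09, adjusted p = 0.704).

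Against the mid-parent 0 of 57 pathway genes passed in PWDxB6. In B6xPWD, given again as a description, 10 lay past the threshold on the lower side, where 6.69% of all genes did, and 0 on the higher, with a median of -0.14 against -0.03 over all genes. They were Cyp26b1 (-0.80), Dtx1 (-0.54), the corepressors Tle2 (-0.42) and Spen (-0.38), the acetyltransferases Ep300 (-0.41) and Kat2b (-0.45), Furin (-0.40), Dtx4 (-0.35), the ligand-like Dlk1 (-0.49) and the coactivator Maml2 (-0.30). Without B6xPWD replicate 2, 9 of these 10 no longer passed, Cyp26b1 being the exception. Calls over all genes fell from 2135 to 389 without that array. Against the F1s within a subspecies 2 were lower in B6xPWD, where 0.726% of all genes were, the acetyltransferase Kat2a by a log2 difference of -0.31 (adjusted p = 0.0368) and Dtx1 by -0.43 (adjusted p = 0.0436). These calls were near the threshold and were lost in 9 and 15 of the 35 alternatives, with adjusted p up to 0.126 and 0.258 without B6xPWD replicate 2. In that comparison 47 of the 57 differences were negative, with a median of -0.08 against -0.02 over all genes.

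**Figure D3:**
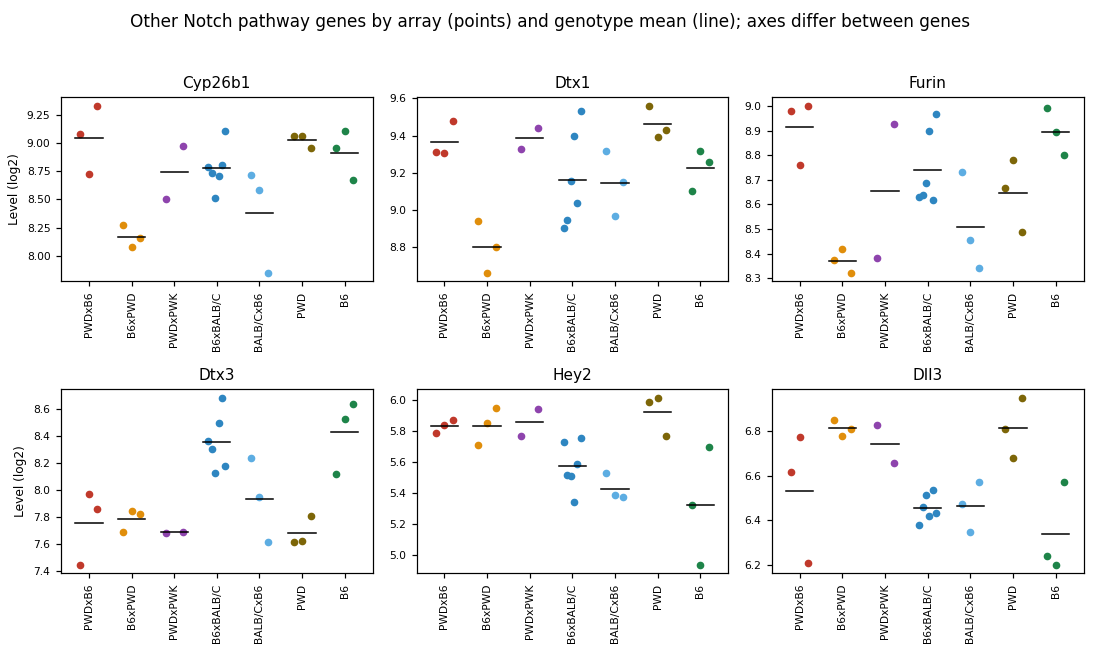
Log2 level of 6 other pathway genes on each array, 1 point per array and a line at the genotype mean, with a separate vertical scale for each gene. Cyp26b1, Dtx1 and Furin are lower on every B6xPWD array than on every PWDxB6 array, and Dtx3, Hey2 and Dll3 separate PWD from B6.

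Between PWD and B6, 10 of 57 pathway genes were higher in PWD, where 10.4% of all genes were, and 1 was lower, where 8.04% were. The Deltex gene Dtx3 was lower in PWD, at 7.62, 7.62 and 7.81 against 8.12, 8.53 and 8.64 in B6 (difference -0.75, SE 0.164, adjusted p = 0.00266). Arrays of PWDxB6, B6xPWD and PWDxPWK, which have a PWD parent as well, had between 7.45 and 7.97. Low levels were not particular to these genotypes: without a PWD parent, BALB/CxB6 had 8.24, 7.95 and 7.61 and B6xBALB/C had between 8.12 and 8.68. Genes listed as targets were 5 of the 10 higher genes: Hes2 by 0.59 (adjusted p = 0.00308), Hey2 by 0.61 (adjusted p = 0.00411), Ccnd1, a cyclin, by 0.44 (adjusted p = 0.0114), Hes6 by 0.42 (adjusted p = 0.0142) and Hes3 by 0.40 (adjusted p = 0.0150). Of these, Hes2, Hes3 and Hes6 were listed by family and are not established targets of Notch. Hes5, of the same list, had a difference of 0.32 and did not pass (adjusted p = 0.0767). The Deltex genes Dtx3l (0.63, adjusted p = 0.00501) and Dtx2 (0.43, adjusted p = 0.00715) and Dll3 (0.48, adjusted p = 0.00878), an inhibitory ligand, were also higher. Numbl, an inhibitor of the receptors, and Fbxw7, which marks their active form for degradation, complete the 10. The calls of Dtx3 and Dtx2 held in all 35 alternatives, and those of Hes2, Hey2 and Dtx3l in the 34 that could be fitted for them. These last 3 were near the dim limit of 5.12 in B6. B6 arrays had 5.47, 5.39 and 5.13 for Hes2, 5.32, 4.93 and 5.70 for Hey2 and 5.71, 5.58 and 5.34 for Dtx3l. Without PWD replicate 3 the calls of Dll3 (adjusted p = 0.0521), Ccnd1 (0.0544), Numbl (0.0546), Hes6 (0.0744), Hes3 and Fbxw7 were lost. Fbxw7, with several probe sets, had a difference of 0.03 (adjusted p = 0.867) when these were averaged. In the comparisons of PWDxB6 with the F1s within a subspecies, of both reciprocal laboratory F1s, of these F1s with B6 and of PWDxPWK with PWD, 0 of 57 passed in limma.

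**Figure D4:**
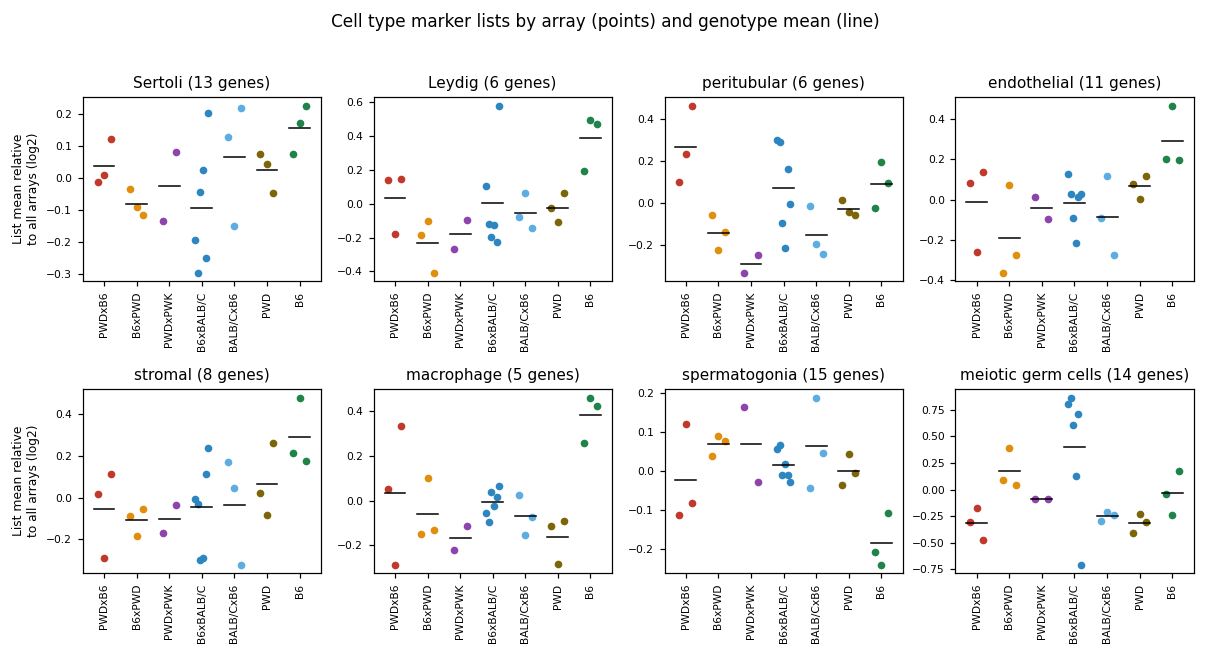
Mean of each cell type marker list on each array relative to its mean over all 23 arrays (log2), 1 point per array and a line at the genotype mean. B6 is high for the endothelial, stromal, Leydig and macrophage lists and low for spermatogonia, and replicate 6 of B6xBALB/C is low for the meiotic list.

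Likeness was measured as the root mean square distance, in log2 units, between the 7 genotype means of a pair of genes after each was centred on its own mean. Nearest to Notch1 were Col15a1 (0.064), a basement membrane collagen, Adamts5 (0.069), a matrix protease, and Pard3b (0.096), a polarity protein, against a median distance of 0.37 over 14735 genes, and the nearest member was Notch2 (0.21). Nearest to Hey1 were Pop7 (0.056), Ifi30 (0.062) and Aen (0.063), against a median of 0.26, and the nearest member was Jag2 (0.13). Nearest to Hes1 were Rnf19a (0.018), Edn2 (0.022) and Ddost (0.023), against a median of 0.15. The profiles share the same 23 arrays and cell mixtures, and the distances carry no test.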

How the data were processed

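Per the labels' protocols, total RNA of cells isolated from mouse testes was labelled with biotin for Affymetrix Mouse Gene 1.0 ST arrays. The authors deposited a table of log2 values for 25690 probe sets on 23 arrays. The base was taken from the range, 1.17 to 13.96; scale and direction follow from it, while background correction, normalization and centring stay unknown, as no source used here gives them, and signal over background could not be judged. The platform annotation gave 1 symbol to 20777 probe sets, several to 232 and none to 4681; 20696 matched GRCm38.p6 gene IDs. The probe set with the highest mean stood for each of 19661 genes, and the 25% dimmest were left out (log2 at or below 5.12).

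Levels were fitted with limma 3.58.1 in R 4.3.3: 7 genotype means, 23 arrays, 16 residual degrees of freedom, Benjamini-Hochberg adjustment over 14745 genes, threshold 0.05. Every member was named; other pathway genes were named where past the threshold, at most 6 per comparison by smallest p, and those beyond it, with Rbpj, Cntn1 and Gdnf, after their values were seen. For likeness the nearest 3 genes to Notch1, Hes1 and Hey1 were named. Members and lists were chosen with earlier results of these data known. The fit was checked on simulated arrays. The 35 alternatives varied filter, normalization, centring, probe sets, variance model, weights, replicate block, groups fitted and arrays left out. Figures used Python 3.11.15 and matplotlib 3.10.9.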

Additional observations from a re-analysis of the deposited data

How the results depend on the processing

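Of the 3 member calls between PWD and B6, that of Hey1 held in all 35 alternatives, that of Jag2 was lost in 2 and that of Notch1 in 6, each time with a parental array left out. No called difference changed sign. Counts of members in comparisons with B6xPWD arrays, with the mid-parent or of laboratory F1s with B6 include Notch1 and are descriptions. Notch1 was taken to be selected on B6xPWD and parental arrays. Of 93 uncalled results 19 were called in at least 1 alternative. With array weights 5 members were called between PWDxB6 and B6xPWD (0 in the reported fit) and 7 for B6xPWD against the mid-parent (4). Called members numbered 5 for B6xPWD against the intra-subspecific F1s (0) and 3 for the difference of reciprocal differences (0). Array weights also raised the calls over all 14745 tested genes in these comparisons. In the same order they were 4635 (418 in the reported fit), 5967 (2135), 4063 (351) and 4222 (192). The rise was thus not particular to the members. With the replicate block, fitted to replicates 1 to 3, 1 member was called between the reciprocal hybrids (Hey1) and 1 between the laboratory F1s and B6 (Notch2). The replicate numbers do not pair the arrays: deviations of same-numbered arrays correlated above 0.1 in 17 of 57 pairs, with a median of 0.013. With B6xBALB/C replicates 1 to 3 only, the counts were 1 and 2 in these comparisons. Leaving out 1 array at a time, the counts ran from 0 to 2 between the reciprocal hybrids, 1 to 5 for B6xPWD against the mid-parent, 1 to 3 for PWD against B6, 0 to 1 for B6xPWD against the F1s and 0 to 2 for the laboratory F1s against B6, and stayed at 0 for the other 5 comparisons. With PWDxB6 replicate 2 and B6xBALB/C replicate 6 both left out, chosen after seeing the data, the counts were 2, 1, 3 and 1 for the reciprocal hybrids, B6xPWD against the F1s, the laboratory F1s against B6 and the difference of reciprocal differences.

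The number of all genes called varied with the setting. Between the reciprocal hybrids it was 418, from 54 to 4635 over the alternatives; for PWDxB6 against the mid-parent 99 (30 to 239), for B6xPWD against it 2135 (389 to 5967), and for PWD against B6 2719 (1802 to 3598). Against the F1s within a subspecies it was 192 (84 to 803) for PWDxB6 and 351 (71 to 4063) for B6xPWD. For the laboratory F1s against B6 it was 665 (188 to 1713), between B6xBALB/C and BALB/CxB6 65 (0 to 1618), for PWDxPWK against PWD 1 (0 to 4) and for the difference of reciprocal differences 192 (19 to 4222). The causes were not tested, beyond the fewer arrays in each leave-one-out fit.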
